A study of Mus musculus with 35 samples.

Results

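The Fos and Jun genes encode the subunits of AP-1, a transcription factor that acts as a dimer. The genes described here are Fos, Fosb, Fosl2, Jun, Junb and Jund, chosen by name, and all 6 were among the 14870 genes measured in each library. They were measured by bulk RNA-seq in punches of the medial prefrontal cortex (mPFC) from mice deficient in Shank3 (KO), a postsynaptic scaffold gene, and from wild-type (WT) mice. In the order of treatments, the groups were KO_control (n = 4) and WT_control (n = 6), which received water, KO_abx (n = 3) and WT_abx (n = 4), which received antibiotics, KO_acetate (n = 5) and WT_acetate (n = 5), which received acetate, and KO_abx_and_acetate (n = 4) and WT_abx_and_acetate (n = 4), which received both treatments. The study compared the genotypes and asked how the treatments change cortical transcription in each. The labels give a sex for each library, 15 female and 20 male, but no age, strain background, Shank3 allele, dose or duration of treatment, and they do not say that each library came from a separate animal. Tests therefore measure the spread between these libraries.

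Fos proteins do not pair with each other and bind DNA as heterodimers with a Jun protein, whereas Jun proteins can also pair among themselves. Both families use a leucine zipper to dimerise and a basic region to contact DNA. In neurons Fos, Fosb and Junb are immediate early genes: synaptic activity and calcium entry switch them on within minutes through factors already bound to their promoters, such as CREB and SRF, and their transcripts are short-lived. Fosl2 (Fra-2) is induced more slowly, Jun answers to stress kinases of the JNK family as well as to activity, and Jund is made at a steady level in most cells. Bulk tissue values cannot tell apart fewer cells that transcribe a gene and less transcript per cell.

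The promoters show how the members differ in the sequence just upstream of their starts, and those of the 4 members with motif matches are printed here. Windows from 250 bases before to 50 bases after each start came from RefSeq (GRCm38.p6), where all 6 members matched by symbol. Each line gives the 140 bases before the RefSeq start, 5′ to 3′ on the gene's own strand, with motif matches in capitals:
Fos, chr12:85473750-85473889, plus strand: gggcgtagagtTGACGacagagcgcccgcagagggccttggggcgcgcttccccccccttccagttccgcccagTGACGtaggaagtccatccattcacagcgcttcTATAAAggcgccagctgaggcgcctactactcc
Fosb, chr7:19310046-19310185, minus strand: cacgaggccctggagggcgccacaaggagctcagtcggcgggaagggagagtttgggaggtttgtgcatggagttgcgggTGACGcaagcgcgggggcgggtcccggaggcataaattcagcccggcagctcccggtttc
Junb, chr8:84978749-84978888, minus strand: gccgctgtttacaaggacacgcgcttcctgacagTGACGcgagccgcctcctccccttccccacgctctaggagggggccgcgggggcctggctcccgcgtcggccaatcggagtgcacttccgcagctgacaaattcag
Jun, chr4:95052223-95052362, minus strand: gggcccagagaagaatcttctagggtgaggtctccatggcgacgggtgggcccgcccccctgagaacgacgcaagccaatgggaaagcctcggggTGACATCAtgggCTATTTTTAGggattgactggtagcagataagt

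The search covered both strands for the core TGACG of the cyclic AMP response element, the site CREB binds, and for its full form TGACGTCA, which contains that core. It also covered the AP-1 site TGANTCA, the Jun-type site TGACATCA known from the human JUN promoter, the TATA box TATAAA, the SRF-binding CArG box and the MEF2 box. The core stood at -129 and -66 in Fos, at -60 in Fosb and at -106 in Junb, counted from the RefSeq start. It was found in 20.8% of all 32851 windows of this length. TATAAA stood at -33 in Fos and at 1, the RefSeq start base itself, in Junb, which is -30 from the start that GENCODE gives, and 13.6% of windows held it. The Jun window held the Jun-type site at -45, found in 3.62% of windows, and the MEF2 box at -33, found in 3.19%. No member window held the full form (1.79% of windows), the AP-1 site (7.81%) or the CArG box (1.63%). The Fosl2 and Jund windows held none of the 7 motifs. Their RefSeq starts lie 671 and 1210 bases from the GENCODE start, and the Fosb start lies 6 bases from it. A match is a run of letters and was not tested as a binding site.

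**Figure D1:**
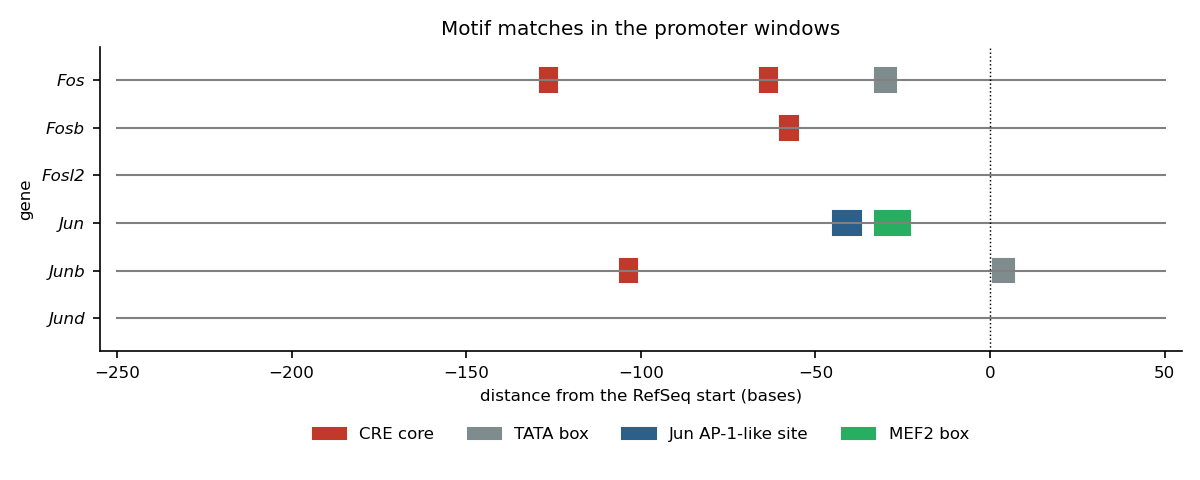
Motif matches in the promoter windows of the 6 members, drawn by distance from the RefSeq start in bases (x axis), with 1 line per gene (y axis) and a box for each match. The cyclic AMP response element core appears in Fos, Fosb and Junb, whereas Jun carries the Jun-type site and the MEF2 box. The windows of Fosl2 and Jund carry no match.

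Shank3 was checked first. It stood at 4.07 to 5.11 log2 CPM, a log2 count scaled to library size, in the 16 KO libraries, against 7.48 to 8.85 in the 19 libraries labelled WT. Sequencing depth was 12.8 to 28.0 M reads, and a member rested on 133 to 5712 reads in a library. The libraries labelled WT_abx 4, WT_acetate 2 and WT_acetate 5 had Acr, the gene next to Shank3 that KO libraries transcribe, at 3.62 to 4.56, and the other WT libraries had Shank3 at 8.22 or more. Y-linked genes went against the labelled sex in the libraries labelled WT_abx 3, WT_acetate 2, WT_acetate 4 and WT_acetate 5. All kept their labels in the tests. Excitatory neuron markers summed to 4335 to 7541 CPM over the 35 libraries. KO_acetate 1 stood apart with 1182 CPM for 10 markers of striatal medium spiny neurons, against 190.3 to 249.0 CPM in all other libraries.

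The members covered a wide range of expression. Per kilobase of exon, Jund averaged 123 CPM over the 35 libraries, Junb 44.6, Jun 16.2, Fos 14.9, Fosl2 4.80 and Fosb 3.52. Exon length and exon blocks here merge the exons of all annotated transcripts of a gene, so they can differ from those of a single transcript. Jund (chr8:70698949-70700616, plus strand) and Jun (chr4:95049034-95052222, minus strand) each have a single exon block in the GENCODE vM21 annotation of GRCm38. Fos (chr12:85473890-85477273, plus strand) and Fosl2 (chr5:32135801-32157842, plus strand) have 4 each, Junb (chr8:84974484-84978718, minus strand) has 3 and Fosb (chr7:19302696-19310051, minus strand) has 2. The values cover each gene as a whole, so the full and truncated (delta FosB) splice forms of Fosb are not separated. Junb overlaps Prdx2, which encodes a peroxidase, on the opposite strand, and Jun and Jund overlap the antisense genes Junos and Gm11175. The library kit marks strand, but no source used here says whether counting took it into account.

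The members differed as widely in how much they varied between libraries around their group means, with 1 sex term shared by all groups. Fos had a residual SD of 0.783 on the log2 scale, larger than that of 97.7% of all genes, whose median was 0.173. The residual SD was 0.528 for Fosb, 0.503 for Junb and 0.400 for Fosl2, larger than in 91.8%, 90.7% and 84.3% of genes. Jun had 0.234, above 65.0% of genes. Jund had 0.114 and was steadier than most genes, with 23.0% below it. The same difference in expression is therefore resolved less well in Fos than in Jun or Jund.

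**Figure D2:**
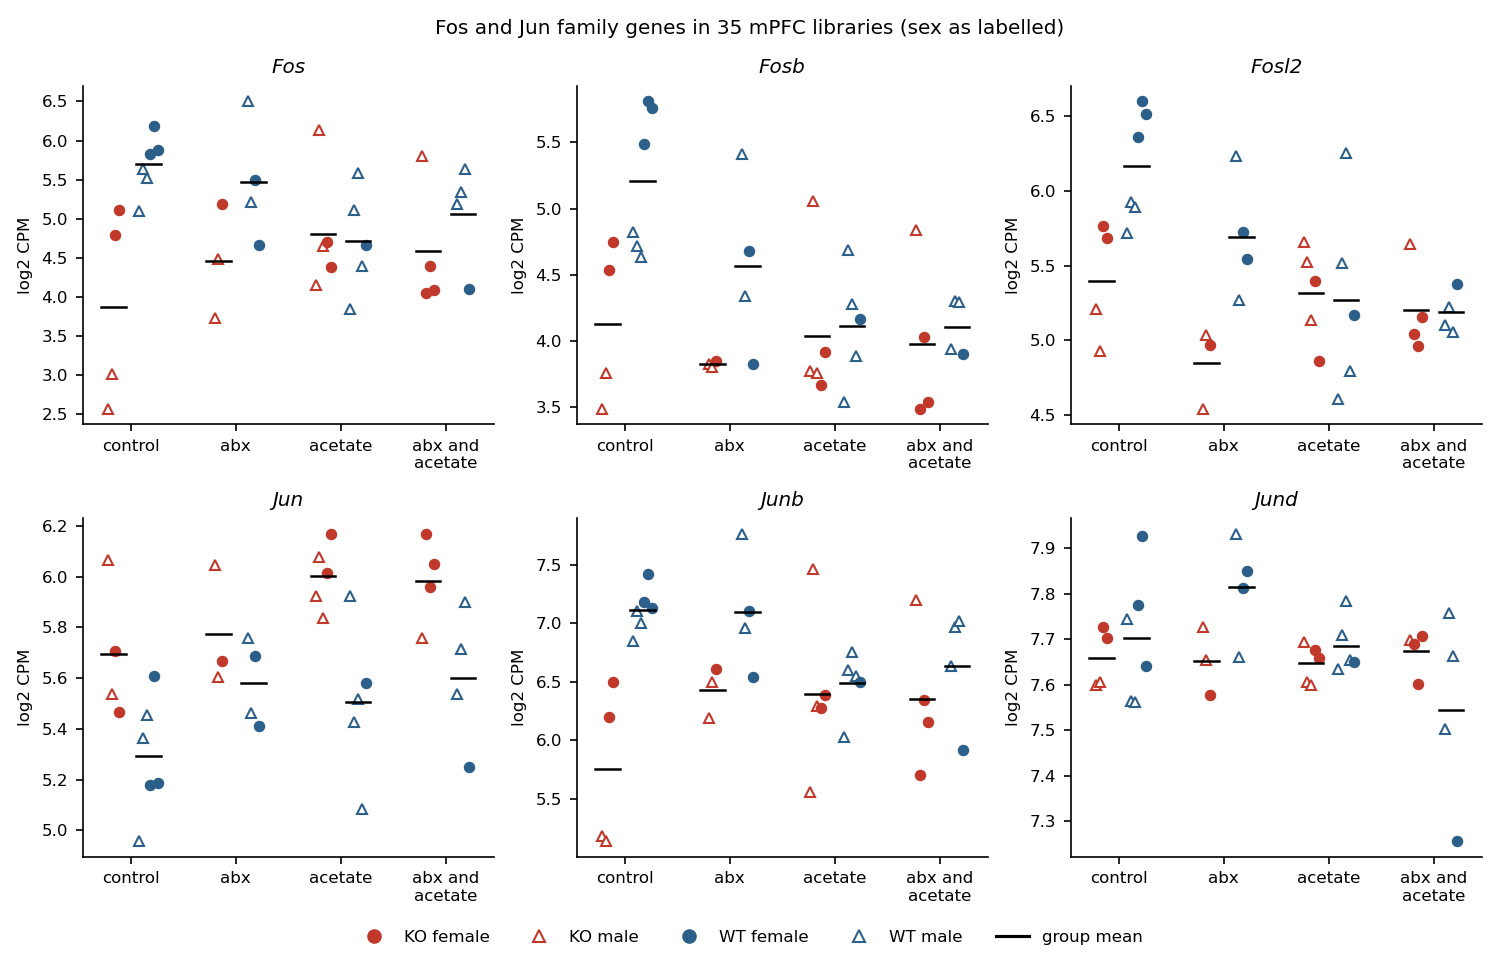
Log2 CPM (y axis) of the 6 members in each of 35 libraries, by treatment (x axis), with KO left of WT, filled circles for females, open triangles for males as labelled, and a black line at each group mean. In control, all 4 KO libraries lie below all 6 WT libraries for Junb, the KO males lie lowest for Fos, and for Jun each KO group mean lies above each WT group mean.

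In untreated mPFC, 5 of the 6 members had a negative log2 fold in KO against WT and Jun had a positive one. The transcript of the activity-induced subunit Fos was at 2.57, 3.02, 4.80 and 5.11 log2 CPM in KO_control libraries, against 5.10, 5.74 and 6.19 (lowest, median and highest of 6) in WT_control libraries. The ranges met at their edges, and the low end was made up of the 2 KO males, at 5.91 and 8.09 CPM. Junb, the partner that Fos often meets after activity, was at 5.18, 5.14, 6.20 and 6.50 in KO_control libraries and at 6.85, 7.12 and 7.42 (lowest, median and highest) in WT_control libraries. Every KO library lay below every WT library, as was the case, in that direction, for 0.424% of all genes.

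Fosb, whose protein products build up with repeated stimulation, was at 3.49, 3.76, 4.53 and 4.75 log2 CPM in KO_control libraries and at 4.63, 5.16 and 5.81 (lowest, median and highest) in WT_control libraries. Fosl2, which encodes Fra-2, was at 5.21, 4.93, 5.77 and 5.68 in KO_control libraries and at 5.72, 6.15 and 6.60 in WT_control libraries. For each of these genes 1 KO female reached into the lower end of the WT range, and the other 3 KO libraries lay below it. Jun was at 6.06, 5.54, 5.71 and 5.47 in KO_control libraries and at 4.96, 5.27 and 5.61 in WT_control libraries, so that 2 of 4 KO libraries lay above every WT library. Jund averaged 7.66 ± 0.07 in KO_control (SD, n = 4) and 7.70 ± 0.14 in WT_control (SD, n = 6), and the KO libraries lay within the WT range.

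In the limma test over all 14870 genes, the log2 folds in control were -1.82 ± 0.47 (SE) for Fos, -1.36 ± 0.30 for Junb, -1.07 ± 0.32 for Fosb, -0.77 ± 0.24 for Fosl2, 0.40 ± 0.14 for Jun and -0.04 ± 0.07 for Jund. No member passed the adjusted threshold of 0.05, which 3 genes (0.0202% of those tested) did. The smallest adjusted p among the members was 0.269 for Junb, followed by 0.39 for Fos. At an unadjusted p under 0.05, 4 members were lower and Jun was higher, as were 2.23% and 1.77% of all genes. The 95% interval of the fold ran from -2.78 to -0.86 for Fos, from -1.98 to -0.74 for Junb and from -0.19 to 0.11 for Jund. Prdx2, which overlaps Junb, had a log2 fold of -0.06 ± 0.07.

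The call for the 4 lower members differed between fits. In a limma fit on the 10 control libraries alone, with the same log2 folds, Fosb (adjusted p = 0.000175), Fosl2 (adjusted p = 0.000782), Junb (adjusted p = 0.0035) and Fos (adjusted p = 0.0165) fell in KO, with 0.134% of all genes called lower. Their SE was then 0.09, 0.07, 0.16 and 0.27 on the log2 scale. That fit estimates both the spread and the sex term from the control libraries alone, and their parts in the change were not separated. Jun and Jund passed neither fit.

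Sex as labelled split the Fos values of the control libraries within each genotype. Fos was at 4.80 and 5.11 in KO_control females and at 2.57 and 3.02 in KO_control males, while it spanned 5.83 to 6.19 in WT_control females and 5.10 to 5.64 in WT_control males. Fosb, Fosl2 and Junb were likewise higher in every female than in every male of the same genotype in control. The share of all genes that split by sex in this way was not counted, and these members also moved together from library to library. In a limma fit with a mean for each genotype, treatment and sex, chosen after the data were seen, Fos passed as lower in KO_control males against WT_control males, with a log2 fold of -2.63 ± 0.46 (adjusted p = 0.0431, with 0.0202% of genes called). The value in females was -1.01 ± 0.46 (adjusted p = 1.0). The difference between the sexes, 1.61 ± 0.66, did not pass the threshold (adjusted p = 1.0). For Junb the log2 fold was -1.82 ± 0.33 in males (adjusted p = 0.0549) and -0.90 ± 0.33 in females. Fosb and Fosl2 had nearly the same fold in both sexes, with female minus male differences of 0.05 ± 0.49 and 0.01 ± 0.45. Across all groups, the additive sex term gave female over male log2 folds of -0.06 to 0.12, and no member was called, against 0.0672% of all genes.

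**Figure D3:**
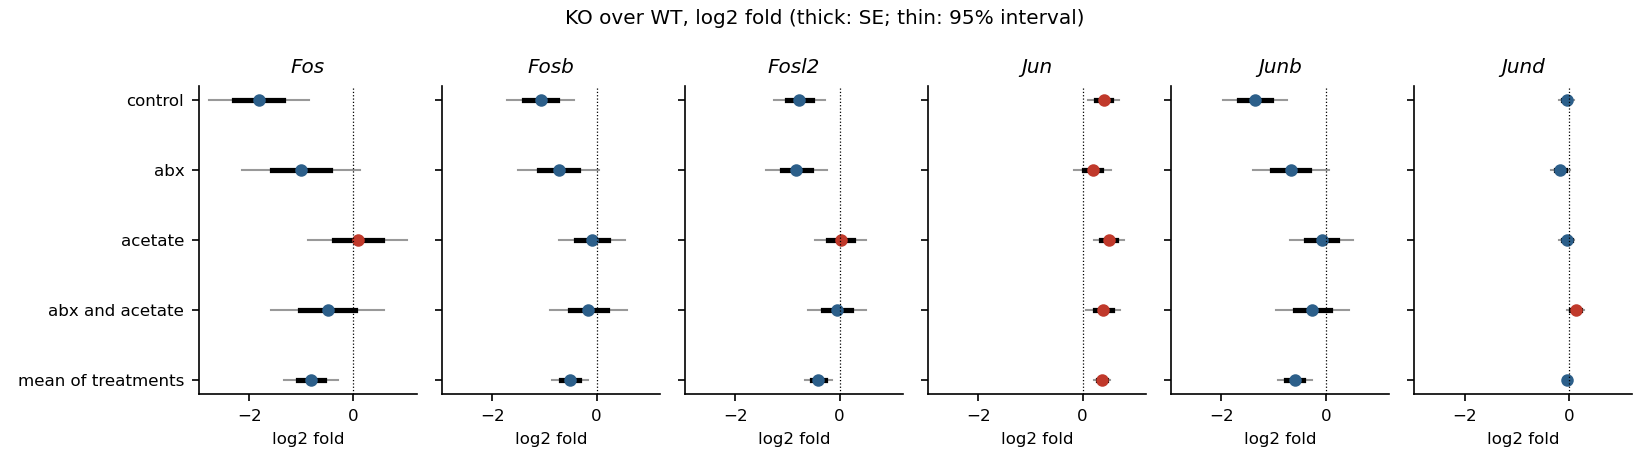
KO over WT log2 fold (x axis) of the 6 members in each treatment and over the mean of treatments (y axis), with the SE as a thick bar and the 95% interval as a thin one. Fos, Fosb, Fosl2 and Junb lie left of 0 in control and in abx and near 0 in acetate, whereas Jun lies right of 0 in all 4 treatments.

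The genotypes were also compared within each treatment. In abx, Fos was at 3.73, 4.48 and 5.18 log2 CPM in KO libraries and at 6.50, 5.22, 5.50 and 4.66 in WT libraries, a log2 fold of -1.0 ± 0.56. Fosl2 was at 4.54, 5.03 and 4.97 in KO_abx libraries and at 6.24, 5.27, 5.73 and 5.54 in WT_abx libraries. All 3 KO libraries lay below all 4 WT libraries, as for 2.69% of all genes, and the log2 fold was -0.83 ± 0.29 (limma adjusted p = 0.995). Fosb varied little in KO_abx, at 3.83, 3.81 and 3.85, against 5.41, 4.34, 4.68 and 3.83 in WT_abx. Without the library labelled WT_abx 4, whose Shank3 lay between the genotypes, the abx fold was -1.27 for Fos and -0.90 for Fosl2. Without WT_abx 3, which went against its sex label, and the 3 WT_acetate libraries that did, it was -1.0 for Fos, -0.70 for Fosb and -0.84 for Fosl2. Leaving out WT_abx 1 gave -0.62 for Fos and -0.41 for Fosb. All 5 blood markers had a negative fold in abx, with a median of -0.92, and summed to 64.6 to 130.9 CPM in KO_abx and 132.2 to 255.1 CPM in WT_abx; their part in the member values was not tested. No member was called in abx, in which 0.0134% of genes were.

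Under acetate the genotype folds of all members except Jun lay near 0. Fos was at 4.16, 6.14, 4.65, 4.70 and 4.38 log2 CPM in KO_acetate libraries and at 3.85, 5.11, 5.59, 4.40 and 4.67 in WT_acetate libraries, a log2 fold of 0.08 ± 0.46. The folds of Fosb, Fosl2, Junb and Jund lay between -0.09 and 0.02, with 95% intervals of -0.73 to 0.55 for Fosb and -0.69 to 0.53 for Junb. Without the libraries between the genotypes (WT_acetate 2 and 5 among them) the acetate fold was 0.15 for Fos, 0.08 for Fosb, 0.03 for Fosl2, -0.04 for Junb and 0.50 for Jun, and without those against their sex label it was 0.08, 0.11, -0.18, 0.03 and 0.30 in the same order. All 8 oligodendrocyte markers had a positive fold, with a median of 0.78, and summed to 1280 to 9431 CPM in KO_acetate and 1402 to 3398 CPM in WT_acetate. All 10 striatal markers had one too, with a median of 0.70, at 190.3 to 1182 CPM in KO_acetate and 207.2 to 245.4 CPM in WT_acetate. KO_acetate 1 was the highest library for both lists, and without it the fold was 0.25 for Fos, 0.15 for Junb, -0.02 for Fosb, -0.08 for Fosl2 and 0.53 for Jun. With both treatments, Fos was at 5.80, 4.05, 4.39 and 4.09 in KO libraries and at 5.19, 5.34, 5.64 and 4.10 in WT libraries. The highest KO_abx_and_acetate library was the male and the lowest WT_abx_and_acetate library was the female, the reverse of the order in control. No member was called under acetate (0.00672% of genes called) or under both treatments (0.0134%).

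Jun had a positive KO against WT log2 fold in every treatment. It averaged 5.69 ± 0.27 in KO_control (SD, n = 4), 5.77 ± 0.24 in KO_abx (n = 3), 6.0 ± 0.13 in KO_acetate (n = 5) and 5.98 ± 0.17 in KO_abx_and_acetate (n = 4). The WT groups averaged 5.29 ± 0.23 in control (n = 6), 5.58 ± 0.17 in abx (n = 4), 5.51 ± 0.30 in acetate (n = 5) and 5.60 ± 0.28 with both (n = 4). All 4 KO means thus lay above all 4 WT means, although single libraries overlapped, the KO ones spanning 5.47 to 6.17 and the WT ones 4.96 to 5.92. Under acetate, Jun was at 5.92, 6.08, 5.84, 6.01 and 6.17 in KO libraries and at 5.92, 5.43, 5.52, 5.08 and 5.58 in WT libraries, and WT_acetate 1 alone reached the KO range.

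Over the mean of the 4 treatments, the KO against WT log2 fold of Jun was 0.37 ± 0.08, a 95% interval of 0.21 to 0.53, and it ranked at number 5 of all genes by p. It did not pass the limma threshold (adjusted p = 0.111), which 0.0202% of genes did. Leaving out WT_acetate 1 gave 0.40 and an adjusted p of 0.0304, and leaving out WT_abx_and_acetate 3 gave 0.39 and an adjusted p of 0.0493. Without the 3 libraries between the genotypes it was 0.36 (adjusted p = 0.497), and without the 4 libraries against their sex label 0.33 (adjusted p = 0.425). All 5 blood markers had a negative fold over treatments, with a median of -0.43, and their part in the member values was not tested. The other members averaged -0.81 ± 0.25 for Fos, -0.59 ± 0.16 for Junb, -0.51 ± 0.17 for Fosb, -0.41 ± 0.13 for Fosl2 and -0.03 ± 0.04 for Jund, with adjusted p of 0.746 or more. In the test of any difference among the 8 groups, Jun had the largest F of the members, 5.89 (adjusted p = 0.126), and Jund the smallest, 1.72 (adjusted p = 0.676). No member passed, against 0.0403% of all genes.

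In WT mPFC, all 3 Fos family members had negative log2 folds after acetate against control, and none passed the limma test. The treatments share their control libraries, so their values are set side by side only. Fosb was at 3.54, 4.69, 4.28, 3.89 and 4.17 log2 CPM in WT_acetate libraries and at 3.94, 4.30, 4.29 and 3.90 in WT_abx_and_acetate libraries, against 4.63 to 5.81 in WT_control libraries. All 4 libraries with both treatments lay below all control libraries, while WT_acetate 2 reached the control range. The limma log2 fold of Fosb was -0.64 ± 0.32 after abx, -1.08 ± 0.30 after acetate (adjusted p = 0.212) and -1.08 ± 0.32 after both (adjusted p = 0.0906). As labelled, WT_control held 3 males and 3 females, WT_abx 2 and 2, WT_acetate 4 and 1, and WT_abx_and_acetate 3 and 1. Among labelled males Fosb averaged 4.72 in WT_control, 4.88 in WT_abx, 4.10 in WT_acetate and 4.18 in WT_abx_and_acetate. The labelled males of WT_acetate include WT_acetate 2 and WT_acetate 4, whose Y-linked genes went against that label, so these averages are not matched for sex. WT_control females averaged 5.69, and the sex term is shared by all groups. The part of sex in these folds was not tested.

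Fosl2 followed the same order of log2 folds. It was at 5.10, 5.22, 5.05 and 5.38 log2 CPM in WT_abx_and_acetate libraries, below all 6 WT_control libraries at 5.72 to 6.60. Its log2 fold was -0.95 ± 0.24 with an adjusted p of 0.0569, just outside the limma threshold that 0.726% of genes passed. Groups that did not overlap in this direction made up 2.24% of genes. Fosl2 did pass as lower in a fit on these 2 groups alone (-0.85 ± 0.09, adjusted p = 0.00551; 0.202% of genes called lower), with no sex term (-0.98 ± 0.24, adjusted p = 0.0403) and without WT_control 3 (-1.0, adjusted p = 0.0450). After acetate it was at 4.61, 5.52, 6.26, 4.79 and 5.17 in WT libraries. WT_acetate 3 lay within the control range, and the log2 fold was -0.86 ± 0.23 (adjusted p = 0.193) with it and -1.11 (adjusted p = 0.0409) without it. After abx the log2 fold was -0.47 ± 0.24. Among labelled males Fosl2 averaged 5.85 in WT_control, 5.75 in WT_abx, 5.29 in WT_acetate and 5.13 in WT_abx_and_acetate, while WT_control females averaged 6.49. WT_acetate 2 and WT_acetate 4, which went against their sex label, count among these males.

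Fos and Junb showed smaller WT differences against their own spread. After acetate Junb was at 6.03, 6.60, 6.75, 6.55 and 6.50 log2 CPM in WT libraries, all below the WT_control libraries at 6.85 to 7.42, as for 0.908% of genes. The log2 folds after acetate were -0.65 ± 0.29 for Junb (adjusted p = 0.489) and -0.97 ± 0.45 for Fos (adjusted p = 0.502), and 0.00672% of genes were called. After abx alone Junb was at 7.76, 6.96, 7.10 and 6.54 in WT libraries, a log2 fold of -0.02 ± 0.30, and no gene passed the adjusted threshold (limma, 0% of genes called, 9.05% at an unadjusted p under 0.05). Jun had positive log2 folds in WT of 0.29 ± 0.14 after abx, 0.21 ± 0.14 after acetate and 0.30 ± 0.14 after both. Jund, at 7.50, 7.76, 7.66 and 7.26 in WT_abx_and_acetate libraries, had a log2 fold of -0.16 ± 0.07 against control and of -0.27 ± 0.08 against abx. Without WT_abx_and_acetate 4 these were -0.04 and -0.15. That library had the lowest depth of the series, 12.8 M reads, and was the only labelled female of its group. The part of depth or sex in its values was not tested. Without the libraries between the genotypes, the log2 fold after acetate in WT was -1.03 for Fos, -1.24 for Fosb, -0.87 for Fosl2 and -0.68 for Junb. Without those against their sex label it was -0.96, -1.28, -0.66 and -0.76 in the same order. Of 6 microglia markers, 5 had a negative fold after both treatments in WT, with a median of -0.25, and the list summed to 188.9 to 268.7 CPM in WT_abx_and_acetate and 246.2 to 287.5 CPM in WT_control. Of 6 excitatory markers, 5 had a positive fold there, with a median of 0.11, and the part of either list in the member values was not tested.

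In KO mPFC the same treatments gave a different set of values. Fos had a log2 fold of 0.59 ± 0.56 after abx, 0.93 ± 0.49 after acetate and 0.70 ± 0.52 after both, against a KO_control group of which the males were low. Junb gave 0.67 ± 0.36, 0.63 ± 0.31 and 0.61 ± 0.33, and Jun 0.08 ± 0.17, 0.31 ± 0.15 and 0.29 ± 0.16 in the same order. Single libraries moved these values: without KO_control 1 the Fos fold was 0.12 after abx and 0.47 after acetate, and without KO_abx_and_acetate 1 it was 0.20 after both. Leaving out KO_abx_and_acetate 1 gave 0.28 for Junb after both, and leaving out KO_acetate 2 gave 0.37 for Junb after acetate. By labelled sex, Fos in every treated KO male lay above the KO_control males. The KO females given acetate (4.70 and 4.38) or both treatments (4.05, 4.39 and 4.09) lay below the KO_control females (4.80 and 5.11). The KO_abx female was at 5.18. Fosb and Fosl2 gave negative values of -0.30 ± 0.38 and -0.53 ± 0.29 after abx, of -0.09 ± 0.33 and -0.07 ± 0.25 after acetate, and of -0.17 ± 0.35 and -0.22 ± 0.27 after both. No member was called in KO. The share of all genes called was 0.0134% after abx and 0% after acetate and after both, where 13% and 7.42% had an unadjusted p under 0.05. At an unadjusted p under 0.05, Jun was the single member counted, as higher after acetate, with 6.60% of all genes.

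The genotypes' responses were set against each other in the interaction tests of limma. The KO minus WT response to acetate was 1.90 ± 0.66 for Fos, 1.28 ± 0.42 for Junb, 0.99 ± 0.45 for Fosb and 0.79 ± 0.34 for Fosl2. It was 0.10 ± 0.20 for Jun and 0.00 ± 0.10 for Jund. These 4 members and 2.04% of all genes were higher at an unadjusted p under 0.05, but no gene passed the adjusted threshold (0% called, adjusted p = 0.997 for each of the 4). For both treatments together the difference was 1.33 ± 0.71 for Fos and 1.10 ± 0.46 for Junb, and for abx alone 0.82 ± 0.73 and 0.69 ± 0.47. Leaving out KO_control 1 gave 0.35 for Fos under abx, and leaving out KO_abx_and_acetate 1 gave 0.78 for Fos under both. Without the 3 libraries between the genotypes, the acetate value was 1.97 for Fos, 1.32 for Junb, 1.16 for Fosb and 0.80 for Fosl2, and without the 4 against their sex label it was 1.90, 1.39, 1.19 and 0.59 in the same order. All 8 oligodendrocyte markers had a positive KO minus WT response to acetate, with a median of 0.86, and without KO_acetate 1 the response was 2.07 for Fos and 1.51 for Junb.

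**Figure D4:**
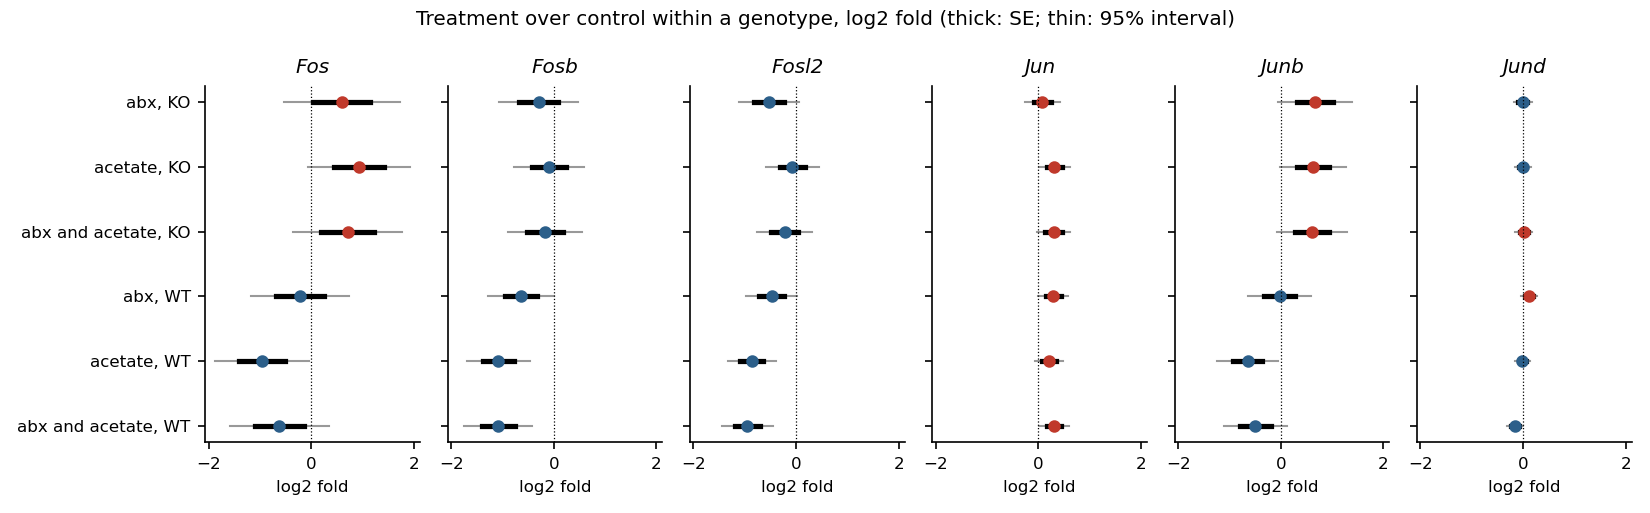
Log2 fold of each treatment over control (x axis) for the 6 members, in KO (upper 3 rows) and in WT (lower 3 rows), with the SE as a thick bar and the 95% interval as a thin one. Fos and Junb lie right of 0 in KO, and Fosb and Fosl2 lie left of 0 in WT, most so after acetate and after both treatments.

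Ordered by group mean, Fos, Fosb, Fosl2 and Junb had their highest level in WT_control and the next highest in WT_abx. Their lowest level was in KO_control for Fos (3.88 ± 1.27, SD, n = 4) and Junb (5.75 ± 0.70) and in KO_abx for Fosb (3.83 ± 0.02, n = 3) and Fosl2 (4.85 ± 0.27). Jun ran the other way, from KO_acetate at the top to WT_control at the bottom. Neighbours in these orders overlapped in their libraries throughout, apart from WT_abx_and_acetate and KO_abx for Fosl2. Those groups differ in genotype and treatment, and the share of all genes that separate between them was not counted. Jund ran from 7.54 ± 0.22 in WT_abx_and_acetate (n = 4) to 7.81 ± 0.11 in WT_abx (n = 4).

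Within groups, Fos, Fosb, Junb and Fosl2 moved together from library to library. Correlations were taken over the 35 libraries on residuals, that is, after removing group means and 1 sex term shared by all groups. A sex difference that varies between groups, such as that of Fos in control, stays in these residuals. Its part in the correlations was not tested. Fos and Junb had a Pearson r of 0.93 and a Spearman rho of 0.94, and r was 0.92 without the 2 libraries farthest from the median of Fos. The permutation p was 1e-05 for each, the smallest that 100000 permutations can give (3.75e-05 after Benjamini-Hochberg adjustment over the 15 pairs of members). Fos with Fosb and Fosb with Junb both had an r of 0.84, Fos with Fosl2 0.67, Fosb with Fosl2 0.66 and Fosl2 with Junb 0.49, and these 5 pairs had adjusted p of 0.00682 or less in the permutation test. Jun was apart from them, with r of -0.06 with Fos, -0.03 with Fosb, -0.08 with Fosl2 and 0.01 with Junb (adjusted permutation p of 0.811 or more). Jund had r of 0.37 to 0.39 with the 3 Fos genes and Junb, an adjusted permutation p of 0.0426 in each case, and 0.31 with Jun (0.0925). By Spearman's rho the adjusted permutation p of Jund with Fos was 0.0654. The permutations treated the 35 residuals as freely exchangeable, although removing group means and the sex term leaves fewer independent values. The permutation p-values are therefore too small. Those of the Jund pairs lie so near the threshold that they cannot decide whether Jund moved with the other members. All genes of a library share its dissection and depth.

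**Figure D5:**
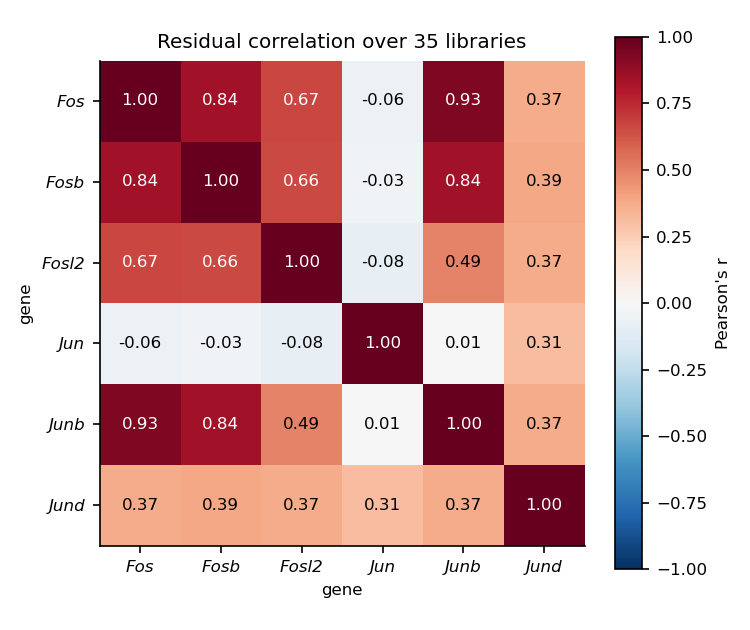
Pearson's r (colour and printed value) between the residuals of each pair of members over 35 libraries, with genes on both axes. Fos, Fosb and Junb form a block with r of 0.84 to 0.93, and Jun lies near 0 with each of the 3 Fos genes and Junb.

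The genes with the most similar residual pattern, out of 14018 with a mean of at least 0 log2 CPM, were named for each member as a description. For Fos they were Arc, a cytoskeletal gene of synapses induced by activity (r = 0.94), Egr2 (0.93), Junb (0.93), Egr1 (0.93) and the orphan receptor Nr4a1 (0.90). For Junb they were Egr2 (0.95), Fos (0.93), Nr4a1 (0.91), Arc (0.91) and the kinase phosphatase Dusp1 (0.88). Fosb had Egr4 (0.87), Egr2 (0.86), Fos (0.84), Junb (0.84) and Egr1 (0.83). Of the 5 nearest to Fosl2, 4 are given here: Tiparp (0.78), the chaperone partner Fkbp4 (0.78), the bZIP repressor Nfil3 (0.76) and Dusp4 (0.74). The nearest to Jun were Arfgap2 (0.73) and Chrnb1 (0.69), and to Jund Arf6 (0.78) and Samd4 (0.74). For Jun and for Jund no gene reached an r of 0.8, against 13 genes for Fos, 10 each for Fosb and Junb and 1 for Fosl2, which is not among the 4 given.

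The genes around AP-1 were read from lists chosen with earlier results of these data known. Of 28 other rapid immediate early genes, all 28 had a negative log2 fold in KO_control against WT_control, with a median of -0.74 against 0.00 over all genes. None was called, and 22 had an unadjusted p under 0.05, against 2.23% of all genes in that direction. The zinc-finger factor Egr2 had -2.47 ± 0.59, the kinase Sik1 -1.15 ± 0.28 and the orphan receptor Nr4a3 -1.11 ± 0.28. In the fit on control libraries alone, 8 of the 28 were called lower, among them Egr2, Nr4a1 and Arc. After acetate in WT, all 28 were again negative, with a median of -0.65, and none was called. After acetate in KO, 21 were positive and 7 negative, with a median of 0.19.

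Of 12 measured bZIP partners that can join AP-1 dimers, 7 had a positive and 5 a negative log2 fold in KO_control, with a median of 0.05, and none was called. The stress-induced Atf3 had -0.98 ± 0.48. Mafg, a small Maf protein, was the one partner called in the comparisons described. It was lower in WT_abx_and_acetate than in WT_control, with a log2 fold of -0.29 ± 0.07 (limma adjusted p = 0.0468, with 0.726% of all genes called). In the fit on these 2 groups alone, none of the 12 partners was called. Among 27 kinases and factors upstream, 19 had a negative fold in KO_control with a median of -0.03. The serum response factor gene Srf had -0.28 ± 0.10 there and the MAP kinase gene Mapk3 (ERK1) -0.30 ± 0.18. No upstream gene was called there, after acetate in WT or after both treatments in WT.

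Among 13 measured genes that restrain AP-1 or the kinases that feed it, 9 had a negative fold in KO_control, with a median of -0.05 and none called. The lowest were the MAP kinase phosphatases Dusp1 (-0.86 ± 0.29), Dusp4 (-0.82 ± 0.30) and Dusp6 (-0.80 ± 0.25). Dusp1 was called lower in the fit on control libraries alone. Of 21 measured genes reported as AP-1 targets, 12 had a positive and 9 a negative fold in KO_control, the median was 0.03, and none reached an unadjusted p under 0.05. The metallothionein Mt2 had 0.40 ± 0.21 and the matrix protease Mmp9 -0.30 ± 0.23.

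Cell type markers were read beside these values. In KO_control against WT_control no marker of any list was called or had an unadjusted p under 0.05. The summed excitatory markers were at 5884 to 6955 CPM in KO_control and 6022 to 7390 in WT_control, and the summed inhibitory markers at 730.1 to 804.2 CPM in KO_control and 681.6 to 815.4 in WT_control. All 5 blood markers had a negative fold, with a median of -0.30, at a summed 100.9 to 119.6 CPM in KO_control and 89.8 to 349.9 CPM in WT_control. Endothelial markers summed to 158.9 to 245.1 CPM in KO_control and 210.8 to 239.8 CPM in WT_control. No list had a marker at 0 reads in every library of a group, and the part of blood and vessel content in the member values was not tested.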

How the data were processed

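The data are bulk RNA-seq of mPFC in 35 libraries. The deposited matrix holds log2 CPM, which the authors made with limma per the submitters' processing notes, in the form log2 of reads plus 0.5 over an effective library size. Whole reads came back for 100% of values within a tolerance of 0.01, and gave each library's depth. No source used here names the aligner, counting tool, genome build or filter on low counts. All 35 columns matched a sample by its title, and 97.0% of symbols matched GENCODE vM21.

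The test was limma (version 3.58.1, under R 4.3.3) and took the deposited values with no further filter or pseudocount. One fit held 8 group means and labelled sex, with a prior variance that follows the mean. P-values are 2-sided, and Benjamini-Hochberg adjustment ran over 14870 genes, with a threshold of 0.05. Called means past that threshold. The log2 folds understate changes of genes with few reads. The 18 comparisons were also run with other weights, scalings, filters, covariates and sample sets, and with each replicate left out. Correlations used 100000 permutations in numpy 2.4.6, and figures matplotlib 3.10.9. Scripts were checked on simulated data.

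Replicate numbers follow the order of the sample records and only name libraries. The members and the gene lists were chosen with earlier results of these data known. Named genes in a list are those called, otherwise up to 3 with the smallest p. Likeness named the 5 genes with the highest r, of which the text prints 4 for Fosl2, where 1 is not reported here, and 2 each for Jun and Jund.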

Additional observations from a re-analysis of the deposited data

Results flagged for a closer look

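In 42 member-by-group sets of 4 to 6 libraries, 2 had a library far from the others, and chance alone gives about 1 in 20 such sets. Both were the same library. KO_acetate 2, a male, had Fos at 6.14 log2 CPM, against 4.16 to 4.70 in the other 4 KO_acetate libraries. It had Fosb at 5.05, against 3.67 to 3.92 in the others.

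For Fos, the KO and WT libraries stood on opposite sides of their own control mean. Every KO_acetate library lay above the KO_control mean while every WT_acetate library lay below the WT_control mean, a difference in response of 1.90 ± 0.66 (SE) on the log2 scale (limma interaction, adjusted p = 0.997). It ran from 1.47 to 2.35 with each library left out in turn. The same held for the libraries given both treatments, with a difference of 1.33 ± 0.71 (adjusted p = 0.999), which was 0.78 without KO_abx_and_acetate 1. Both differences rest on the same control libraries. The rule of opposite sides was applied to each member and treatment without a test, and the share of all genes that meet it was not counted. The KO_control mean of Fos averaged labelled males at 2.57 and 3.02 and females at 4.80 and 5.11. Every KO male given acetate or both treatments lay above the KO_control males. Every KO female given acetate (4.70 and 4.38) or both treatments (4.05, 4.39 and 4.09) lay below the KO_control females.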

How the results depend on the processing

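No paired analysis was possible because the labels give no replicate numbers shared between groups. The planned edgeR test was not run because the matrix was deposited as log2 CPM. The whole reads recovered from it served only for depth, voom weights, read totals and the setting with 3 reads added. Voom weights, no variance trend, a robust prior, median centring (library shifts of at most 0.0687), quantile normalization, 3 reads added, a mean of at least 0, a RIN term, no sex term and the sets without the doubted libraries changed no call of a member, apart from Fosl2 with no sex term (below). For 63 member folds at least as large as their SE, or in control or over treatments, planned refits were counted. Apart from those that left out 1 replicate in turn, 750 kept their direction and side of the threshold and 6 newly passed it. Some of these refits used fewer libraries. The 6 came from fits on only the groups compared or with no sex term. The 39 smaller folds had an adjusted p of 0.644 or more in every setting.

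With only the groups compared, 4 members and 23 genes were called in KO against WT in control, 1 gene in abx, 0 genes in acetate against control in WT, 1 member and 45 genes in abx_and_acetate against control in WT, 0 genes in abx against control in KO, and 1 gene in abx_and_acetate against abx in WT. With no sex term, the counts were 2 genes in KO against WT in acetate, 7 in acetate against control in WT, and 1 member and 163 genes in abx_and_acetate against control in WT. A RIN term gave 56 genes in the last, 2 in acetate against control in WT and 0 in abx against control in KO. In acetate against control in WT, the count was 0 with voom weights, with quantile normalization and without the libraries against their sex label, and 2 with a robust prior and with a mean of at least 0. In KO against WT in acetate it was 2 with voom weights, 4 without the libraries between genotypes and 2 without those against their sex label. In abx against control in KO it was 0 with voom weights and with 3 reads added and 1 with no variance trend. Quantile normalization gave 1 gene in abx_and_acetate against abx in KO and 1 in the response to abx of KO against WT, as did no variance trend in the second. The cause of these changes was not tested.

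Leaving out each replicate in turn gave 0 to 1 members over treatments (KO against WT), in acetate and in abx_and_acetate against control in WT, and among all 8 groups, where Fosl2 passed without WT_acetate 3. The member was Jun over treatments and Fosl2 in the others. All-gene counts ran from 1 to 3 in KO against WT in abx, 1 to 2 in acetate, 1 to 2 in abx_and_acetate and 3 to 5 over treatments. They ran from 0 to 6 in acetate and from 0 to 203 in abx_and_acetate against control in WT, where leaving out WT_abx_and_acetate 3 gave 0 and WT_control 3 gave 203. They were 0 to 1 for abx against control in WT and in KO, for acetate against control in KO, for abx_and_acetate against abx in WT and for the KO minus WT response to abx, and 3 to 15 among all groups. Fos in control ran from -2.25 without KO_control 4 to -1.37 without KO_control 1. Jund in control ran from -0.073 to 0.0032, the positive value without WT_control 5, and Fos in abx was 0.10 in females alone. That abx value sets KO_abx 3 against WT_abx 3, which went against its sex label, and WT_abx 4, which lay between the genotypes. The fit by sex was chosen after seeing the data, and a single library of a group and sex is assumed in it to vary like the others. Each member had 133 reads or more in every library.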
